A study of Mus musculus with 24 samples.

Results

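Hippocampal poly(A) RNA of 8 5xFAD mice was examined for the transcripts that an antibody against N6-methyladenosine (m6A) retained relative to the RNA put into the immunoprecipitation (IP). The comparison rests on the 16 libraries labelled 5xFAD out of 24 in all, 1 IP and 1 input library from each animal, and the libraries were chosen by these labels alone. Of the 8 animals, 4 received vehicle and 4 received MS1262, which the series title calls a brain-penetrant inhibitor of the histone methyltransferase G9a. 5xFAD mice carry human transgenes with mutations of familial Alzheimer's disease, among them APP, expressed in neurons from a Thy1 promoter. They are known for early amyloid plaques surrounded by reactive glia. The other 8 libraries came from 4 age-matched wild-type mice with no treatment, so genotype and dosing cannot be told apart in any comparison with them. The age, the dose and the duration of treatment are not given in the sources used here.

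m6A is deposited on nascent messenger RNA in the nucleus by a complex built around METTL3 and METTL14, often near stop codons and in long internal exons. YTH-domain and other reader proteins bind it and influence splicing, export, translation and decay, and FTO and ALKBH5 can remove it. In the brain the mark is known for roles in neurogenesis, myelination, synaptic translation and memory. In this assay a transcript that carries more of the mark is retained more, and the readout per gene is the ratio of its IP to its input level. No fragmentation before the antibody step is named in the protocol used here, so a ratio was read per gene and not per site. All ratios are relative to the typical transcript of the same libraries, and a change of the total amount of m6A cannot be seen.

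The 16 libraries held 3.984 M to 43.77 M estimated counts. The IP library of vehicle animal 4 was the shallowest and stood apart: its mean correlation with the other IP libraries of its group was 0.914, against 0.946 to 0.975 for the other 7 5xFAD IP libraries. Vehicle animal 3 differed in tissue content, with 7668 CPM (counts scaled to a common library size) of the choroid plexus transcript Ttr in input against 33.01 to 172.7 in the other 7 animals. Its input held 1.409 CPM of Xist, the noncoding RNA of the inactive X chromosome, against 23.48 to 52.27 in the others. Its input and IP libraries held 0 counts of the Y-linked genes examined, as did those of the other 7 animals. Nothing in the labels accounts for either animal. Some results that rest on one of them are given with and without it, and others are not. Mitochondrial transcripts made up 12.25 to 16.7% of the 5xFAD input and 4.222 to 6.997% of the IP counts. Markers of neurons, astrocytes, oligodendrocytes and microglia were all detected in the input libraries.

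The antibody separated the transcripts of the 5xFAD hippocampus into large opposed groups. Of 18300 genes tested, 4719 were higher in IP than in input (25.8%) and 4697 were lower (25.7%) at an adjusted p under 0.05 in edgeR's quasi-likelihood test, with the animal as a block. Together these were 51.5% of the genes. Such genes are called higher or lower below. The counts of called members in each list below are to be read beside these shares of all genes, 25.8% and 25.7%. The median log2 difference was 0.71 among genes called higher and -0.55 among genes called lower. All 8 animals moved the same way in 3335 of the genes called higher and in 3441 of those called lower. Over all tested genes, 18.6% were above 0 in 8 of 8 animals and 19.3% were below 0. Changes of at least 2-fold (1979 genes, 10.8%) were uneven, with 1450 genes higher (7.92%) and 529 lower (2.89%).

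The split of the calls differed between fits. With library totals the scaling alone changed, whereas the limma fits on TPM changed the test and the unit as well. The median log2 difference over all genes was -0.01 with TMM scaling, 0.25 with library totals only, and 0.38 and 0.57 in limma fits on log2(TPM + 1) and log2(TPM + 0.1). The share of the called genes that were higher was 74.53%, 95.52% and 95.42% in those 3 fits, and all directions are therefore read against the median of all genes. Relative to that median, every gene called higher or lower kept its side with library totals. A change of scaling shifts all genes of a library alike, so that outcome was nearly fixed in advance and is no check of the directions. With log2(TPM + 1), 95.8% of the genes called higher and 88.6% of those called lower did so. With log2(TPM + 0.1), 98.7% of the genes called higher and 98.1% of those called lower did so.

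Both groups of 5xFAD animals gave largely the same separation. In vehicle animals 3501 genes were called higher (19.1%) and 3762 lower (20.6%). In MS1262 animals 3758 were called higher (20.5%) and 3219 lower (17.6%). The 2969 genes called higher in both were 84.8% of the vehicle calls and 79% of the MS1262 calls, and the 2751 called lower in both were 73.13% and 85.46%. These groups share no library, and 1 gene was called in opposite directions.

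**Figure D1:**
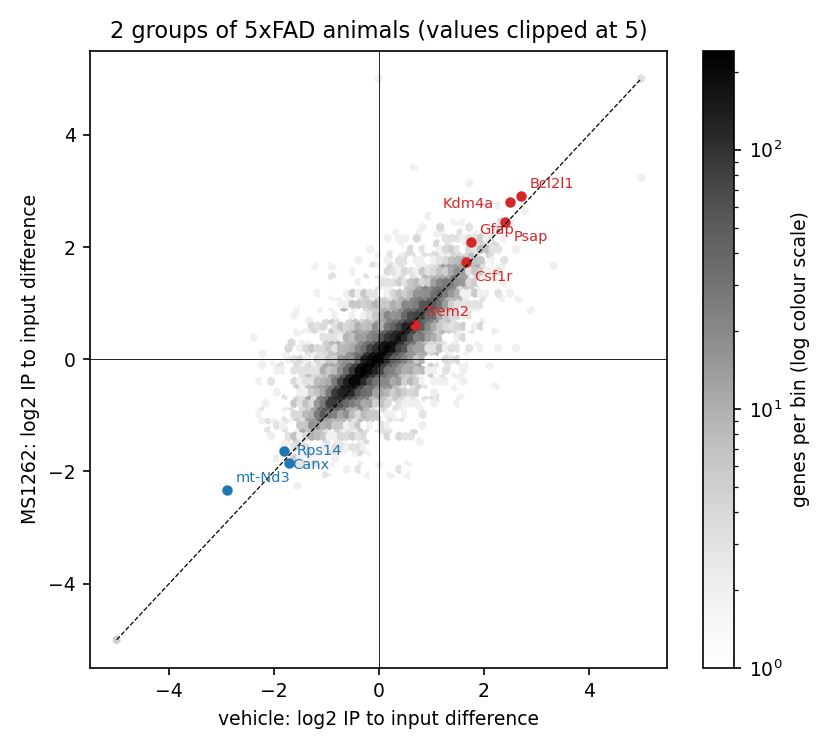
Log2 difference of IP and input from the fit in 5xFAD vehicle animals (x axis) and 5xFAD MS1262 animals (y axis), 4 animals each; shading counts the tested genes per bin on a log colour scale, values beyond 5 are drawn at 5, and the dashed line marks equality. Bcl2l1, Psap and Csf1r are high on both axes, and mt-Nd3, Rps14 and Canx are low on both.

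Deposited peaks lay over the genes called higher far more often than over the others. The authors called peaks in each animal from its IP reads against its own input, and the 8 lists held 3794 to 6591 peak regions. Of 16879 tested genes with a known span, 11.9% had a peak in at least 6 of the 8 animals. This share was 32.7% of the genes called higher, 2.34% of those called lower and 5.01% of those not called. Peaks come from the same reads as the counts and do not support them independently. Of the genes at least 2-fold higher, 29.9% had such a peak.

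Level and length moved with the ratio. In the quintile of genes with the highest input CPM, 56.2% were called lower and 19.48% higher, with a median log2 difference of -0.27. In the quintile with the lowest input, the median was 0.20. These quintiles were cut on input CPM, the denominator of the ratio. Noise in input alone can add to such a trend, and its part was not tested. By transcript length, taken from the deposited counts and TPM, the shortest quintile had a median of -0.15 and the longest -0.10, and the middle quintile had 0.07. In vehicle animal 4 the longest quintile had a median of -0.51, against -0.10 to -0.05 in the other 7 animals. The part of level, length and this library in single results was not tested beyond the values given with each.

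The largest ratios are given for genes with a mean log2 CPM of at least 3 in the 16 libraries and the same sign in 8 animals, with protocadherins and clone-named genes set apart. Bcl2l1, which encodes the anti-apoptotic protein Bcl-xL, lies at chr2:152758732-152833803 of GRCm38. Its input level was 8.10 to 18.8 CPM, with a median of 9.69, and its IP level was 61.7 to 104 CPM, with a median of 75.5. No IP library came near any input library. The log2 difference for the 8 animals was 2.81 ± 0.10 (SE from the fit, edgeR adjusted p = 1.2e-11), and single animals lay between 2.47 and 3.11. Its peaks formed 2 regions, at 152780688-152782390 and 152829317-152830119, and both were present in 8 of 8 animals.

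Psap, the precursor of the saposins that activate lysosomal sphingolipid hydrolases, had 91.8 to 149 CPM in input and 527 to 887 CPM in IP. Its animals lay between 1.90 and 2.74, and the log2 difference was 2.43 ± 0.12 (SE; edgeR adjusted p = 2.5e-10). Peaks over Psap formed 8 regions, 7 of them present in 8 of 8 animals. Abcb8, a transporter of the mitochondrial inner membrane, reached 2.58 ± 0.12. Sgta, a co-chaperone for tail-anchored membrane proteins, reached 2.36 ± 0.07, with its 8 animals at 2.19 to 2.56. Atg9a, a lipid scramblase of autophagosome formation, had 2.34 ± 0.21 from lower counts, with animals between 1.06 and 3.06.

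The other genes with the largest positive differences were close behind. Pla2g6, a calcium-independent phospholipase, had a log2 difference of 2.29. Sec61a1, the channel subunit of the endoplasmic reticulum translocon, had 2.19. Tubb2b, a neuronal beta-tubulin, had 2.18. Ampd2, an AMP deaminase, had 2.15. Pnpla7, a lysophospholipase, had 2.12 although no peak was listed over it in any of the 8 animals. Slc2a6, a facilitative hexose transporter, had 2.10 and Tab1, an adaptor of the kinase TAK1, had 2.09. In each of these 7 genes the highest of the 8 input libraries lay below the lowest of the 8 IP libraries.

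**Figure D2:**
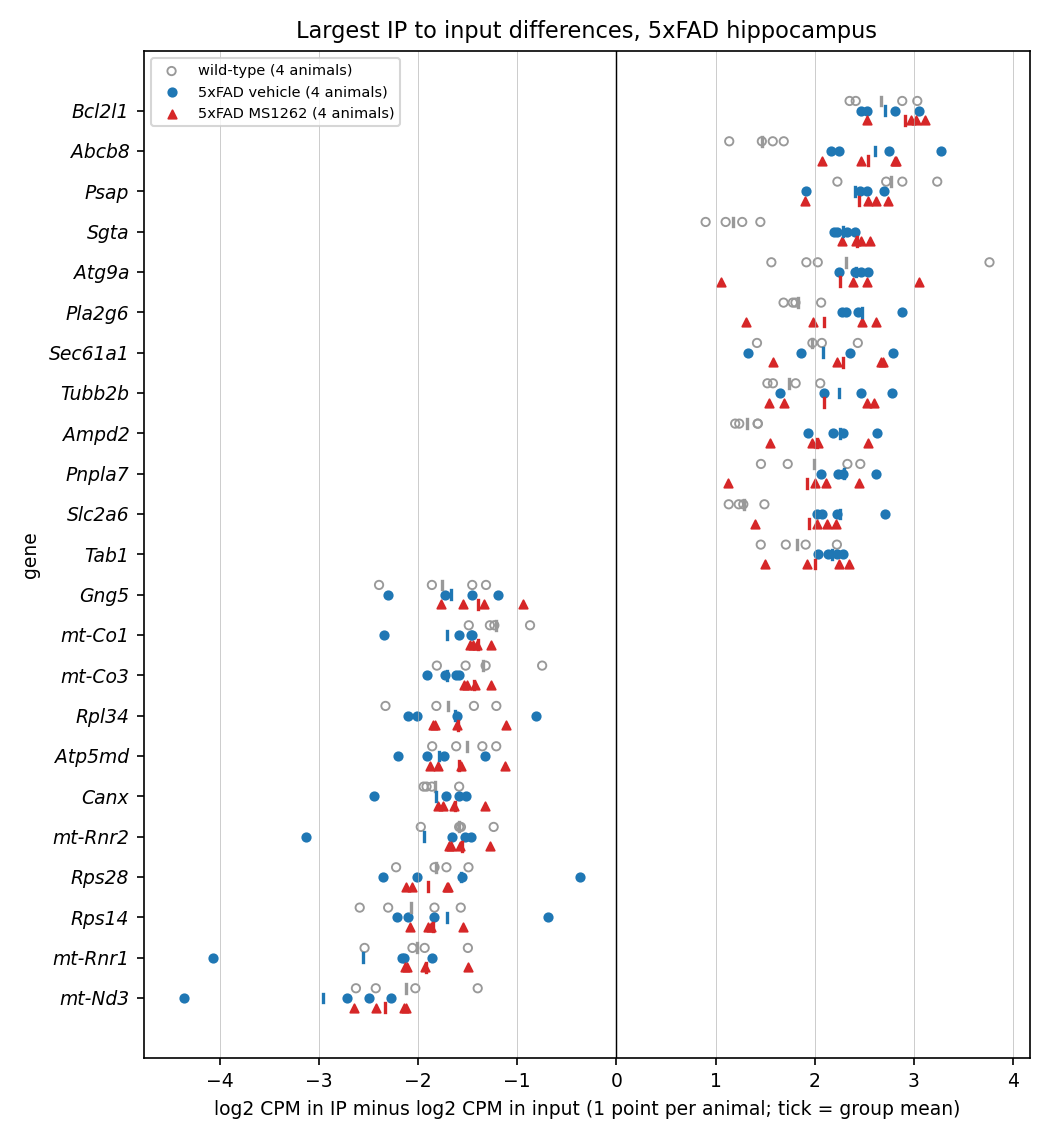
Log2 CPM in IP minus log2 CPM in input (x axis) for genes with the largest positive and negative differences; each point is 1 animal (wild-type, 5xFAD vehicle, 5xFAD MS1262; 4 each) and ticks are group means. The genes were chosen for the same sign in every 5xFAD animal. By that choice all 5xFAD points of the upper genes lie above 0 and those of the lower genes below 0. For mt-Nd3 and mt-Rnr1 the vehicle point farthest to the left is animal 4.

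Transcripts made inside mitochondria had the lowest median of the lists examined. All 15 mitochondrially encoded genes tested were called lower and all 15 were below 0 in 8 of 8 animals, with a median of -1.37 over the list. As background, these transcripts are synthesised in the organelle, away from the nuclear methyltransferase. mt-Nd3, a complex I subunit, had 393 to 671 CPM in input and 32.6 to 99.4 CPM in IP. Its log2 difference was -2.62 ± 0.18 (SE; edgeR adjusted p = 6.9e-09). The ribosomal RNAs mt-Rnr1 and mt-Rnr2 had -2.22 and -1.74, and the cytochrome c oxidase subunits mt-Co3 and mt-Co1 had -1.57 and -1.55. The list median was -2.65 in vehicle animal 4 and between -1.37 and -0.89 in the other 7 animals. Without that animal all 15 were again called lower, and mt-Nd3 was at -2.41.

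Genes of the translation, respiration and proteolysis machinery were also mostly lower. Of 79 cytoplasmic ribosomal protein genes, 61 were called lower and 6 higher, with a median of -0.51. Rps14 had 378 to 667 CPM in input and 93.8 to 412 CPM in IP, with a log2 difference of -1.79 ± 0.14 (SE; edgeR adjusted p = 3.5e-08). Its groups of libraries overlapped through 1 IP library. Rps28 had -1.75, Rpl34 -1.63, Rps13 -1.47, Rpl35 -1.31 and Rps27 -1.20. Many processed pseudogenes resemble these genes, and how the authors' quantification split such reads is uncertain. Of the 79 genes, 76 lay in the shortest quintile of transcripts.

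Of 48 nuclear genes of oxidative phosphorylation, 28 were called lower and 9 higher, with a median of -0.33. Ndufb5, a complex I subunit, had -1.34, Cox7c, a subunit of cytochrome c oxidase, had -1.28 and Ndufa5 had -1.18. Atp5md, a subunit of ATP synthase outside the list, had 196 to 403 CPM in input and 69.9 to 121 in IP, a difference of -1.69 ± 0.10. Gng5, a G protein gamma subunit with a short transcript, had -1.51. All 17 proteasome genes that passed the test among 20 were lower, with a list median of -0.34. The catalytic beta subunit gene Psmb6 had -1.02 and the beta subunit gene Psmb4 had -1.05, and both were above 0 in 1 animal. In vehicle animal 4 the list medians were 0.03 for ribosomal proteins, 0.09 for oxidative phosphorylation and -0.08 for the proteasome. The other 7 animals lay at -0.82 to -0.34, -0.52 to -0.17 and -0.45 to -0.28. Without vehicle animal 4, 68 ribosomal protein, 33 oxidative phosphorylation and 20 proteasome genes were called lower.

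A longer transcript was among the lower genes too. Canx, the calnexin chaperone of the endoplasmic reticulum, had 1570 to 2350 CPM in input and 288 to 726 CPM in IP, a log2 difference of -1.72 ± 0.09 (SE; edgeR adjusted p = 6.8e-10). A peak was nevertheless listed over Canx in 8 of 8 animals. Among the 15 endoplasmic reticulum chaperone genes, 5 were called lower and 2 higher, with a median of 0.01. Dnajb11 was at -0.62 and Hyou1 at 0.56.

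The gamma protocadherins had the highest median of the families and lists examined. Clustered protocadherins are cell surface proteins whose alternative promoters give neurons distinct identities for self-avoidance. Of 57 tested, 39 were called higher and 3 lower, with a median of 0.91, but the subfamilies differed. All 22 gamma members were called higher, with a median of 3.32 and a range of 0.94 to 4.78. Of 22 beta members 15 were higher and 1 was lower, with a median of 0.58. Of 13 alpha members 2 were higher and 2 lower, with a median of 0.17.

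Gamma and alpha members each share constant 3′ exons, so the split of reads among members is uncertain and the sum over a subfamily is the safer value. Summed over the gamma members, the 8 input libraries held 81.44 to 126.6 CPM and the 8 IP libraries 281.1 to 310.8 CPM, without overlap. The alpha sum went the other way, from 171.5 to 218.9 CPM in input to 107.7 to 165.2 CPM in IP, also without overlap. The beta sums overlapped, at 187.5 to 272.7 and 245.9 to 277 CPM, and fell from input to IP in vehicle animal 4. Wild-type animals had gamma sums of 72 to 93.2 CPM in input and 270 to 342 CPM in IP, and these did not overlap either.

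Values of single members are given as quantified by the authors. The uncertain split of reads limits each of them, so they do not show the size of the ratio of 1 member. Pcdhgc3 had 0.190 to 2.04 CPM in input and 18.6 to 36.2 CPM in IP, a log2 difference of 4.46 ± 0.28 (SE; edgeR adjusted p = 2.8e-09). Pcdhgc5 had 0.987 to 4.23 CPM in input and 19.7 to 32.1 in IP, a difference of 3.70 ± 0.23. Pcdhgc4, with more input reads at 70.2 to 105 CPM, rose to 139 to 176 CPM and had the smallest gamma difference, 0.94. Pcdha4 had 28.8 to 92.8 CPM in input and 8.78 to 22.1 CPM in IP, a difference of -1.87 ± 0.16.

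**Figure D3:**
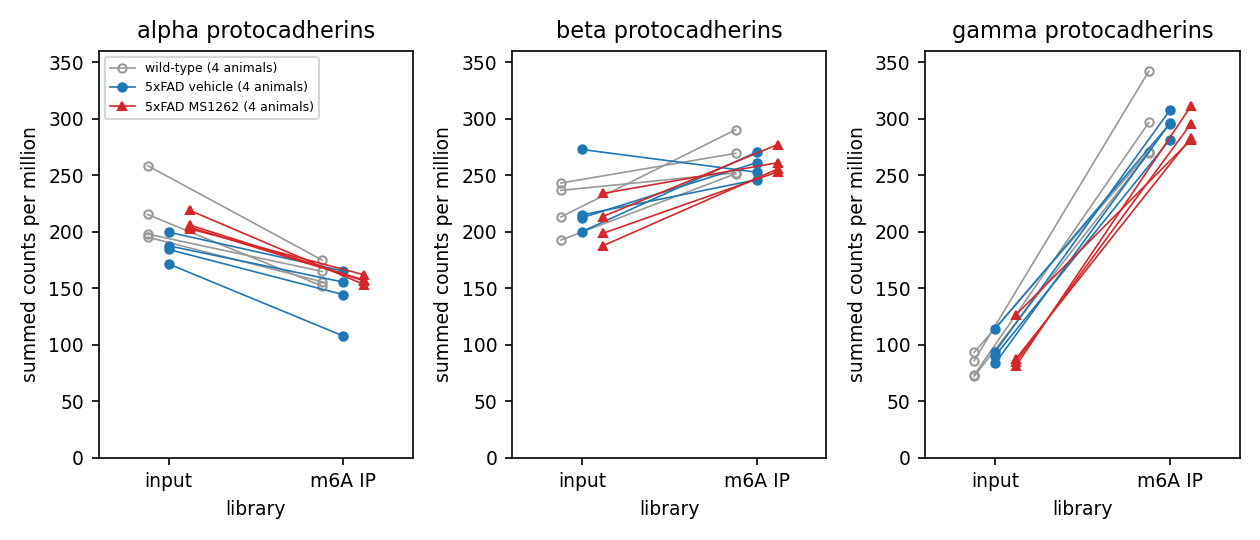
Summed CPM (y axis) of the alpha, beta and gamma protocadherins in the input and IP library of each animal, with a line joining the libraries of 1 animal (wild-type, 5xFAD vehicle, 5xFAD MS1262; 4 each). The gamma sums of the 5xFAD animals go from 81.44 to 126.6 in input to 281.1 to 310.8 in IP, whereas the alpha sums are lower in IP.

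Transcripts of homeostatic microglia were mostly retained by the antibody. These genes mark the surveillant state of the brain's resident macrophages. Of 20 tested, 15 were called higher and 2 lower, with a median of 0.51. Csf1r, the receptor for microglial survival factors, had 14.6, 25.0 and 29.3 CPM as lowest, median and highest input and 43.9, 84.2 and 92.0 CPM in IP. Input and IP did not overlap, and the log2 difference was 1.69 ± 0.08 (SE; edgeR adjusted p = 2.1e-10). In bulk tissue more cells of a type and more RNA per cell cannot be told apart; a ratio of IP to input in the same animal is taken within its own RNA.

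The other genes of the homeostatic microglia list had smaller ratios than Csf1r. P2ry6, a UDP receptor linked to phagocytosis, had 1.44 ± 0.19 from 0.512 to 2.71 CPM in input. Selplg, a selectin ligand, had 1.03 ± 0.15 and the fractalkine receptor Cx3cr1 had 0.90 ± 0.09. Golm1, a Golgi membrane protein, had 0.80, and Tmem119, a microglial membrane marker, had 0.58. P2ry12, the ADP receptor that guides microglial processes, was not called, at -0.19 ± 0.13 (edgeR adjusted p = 0.22). It was at -1.51 in vehicle animal 4 and at -0.02 in the fit without that animal. Gpr34 and Ltc4s were called lower, at -0.42 and -0.76.

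The list of microglial signalling genes followed with a lower median. In bulk tissue the cells that its reads came from cannot be told. Of 24 receptors, signalling proteins and transcription factors, 10 were called higher and 2 lower, with a median of 0.18. Lrp1, a large endocytic receptor for apolipoprotein E and amyloid beta, had 12.2 to 21.1 CPM in input and 31.9 to 67.7 CPM in IP. Its input median was 14.6 CPM in 5xFAD and 16.2 CPM in wild-type. The difference of Lrp1 was 1.49 ± 0.09, with all animals at 1.13 or above. Inpp5d, the phosphatase SHIP1, had 1.54 ± 0.15, from 1.84 to 7.62 CPM in input and 7.40 to 22.3 CPM in IP, which overlapped. Ptpn6, the phosphatase SHP-1, had 0.65. Ms4a6d, a member of the membrane-spanning 4A family, was lower at -0.69.

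Genes of disease-associated microglia, the state found around plaques, did not move one way. Of 34 tested, 13 were called higher and 9 lower, beside 25.8% and 25.7% of all genes, with a median of 0.05. Trem2, the lipid receptor that drives this state, lies at chr17:48346401-48352276. It had 5.00, 17.4 and 24.9 CPM as lowest, median and highest input and 7.77, 31.0 and 45.6 CPM in IP. Every animal was above 0, from 0.29 to 1.01, and the log2 difference was 0.66 ± 0.09 (SE; edgeR adjusted p = 1.5e-05). All 4 wild-type animals were below 0, from -0.94 to -0.31. Its peaks formed 2 regions, found in 7 and in 3 of 8 animals.

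Tyrobp, the signalling adaptor of Trem2, was not called, at 0.20 ± 0.11 (edgeR adjusted p = 0.15). Without vehicle animal 4 it was at 0.05. Cst7, which encodes cystatin F, a protease inhibitor, had 8.16 to 63.9 CPM in input and 7.44 to 58.4 CPM in IP, with a difference of 0.12 ± 0.11. Cst7 rises with plaque-associated microglia, and its input median was 36.6 CPM in 5xFAD against 0.436 CPM in wild-type. The integrin Itgax was at 0.02 and the lectin receptor Clec7a at -0.16, neither of them called.

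Ctsd, Fth1, Lgals3bp and Apoe were among the 13 members of that list called higher, and Cd9 and Cd63 among the 9 called lower. In bulk tissue the cells that these reads came from cannot be told. The input level of Fth1 was 542 to 1050 CPM in 5xFAD and 575 to 1060 CPM in wild-type. Wild-type input also held 84.5 to 109 CPM of Apoe and 99.3 to 122 CPM of Cd9. Ctsd, the aspartyl protease cathepsin D, had 418 to 775 CPM in input and 761 to 1630 CPM in IP, a difference of 1.14 ± 0.09 (SE; edgeR adjusted p = 1.7e-08). Fth1, the ferritin heavy chain, had 0.86 ± 0.08, and Lgals3bp, a secreted galectin ligand, had 1.47 ± 0.12. Apoe, the main lipid carrier of the brain, had 121 to 175 CPM in input and 218 to 541 CPM in IP, without overlap, a difference of 1.01 ± 0.08. The tetraspanins Cd9 and Cd63 were lower, at -0.81 and -0.83. The chemokine Ccl3 was lower at -0.49 ± 0.17 (edgeR adjusted p = 0.025). That call was lost on leaving out vehicle animal 1 or 2 or MS1262 animal 2 or 3, with values of -0.48 to -0.37.

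Most genes of complement and antigen presentation were not called. Of 21 genes 7 were called higher and 1 lower, beside 25.8% and 25.7% of all genes, and 13 were not called. The median was 0.18. C1qb, a chain of the initiating complement factor C1q, had 12.9 to 40.0 CPM in input and 26.0 to 112 CPM in IP, a difference of 1.24 ± 0.08 (SE; edgeR adjusted p = 6.3e-09). C1qa had 0.85 ± 0.17, the complement receptor subunit Itgam had 0.98 ± 0.08 and its partner Itgb2 had 0.58. C4b had 1.03 ± 0.09, and C3 was not called at 0.38 (edgeR adjusted p = 0.062). Relative to the median of all genes, C4b was at 0.28 on log2(TPM + 1) and 0.14 on log2(TPM + 0.1). On the same scales C3 was at -0.20 and -0.27. Fcer1g, the Fc receptor gamma chain, was lower at -1.003 ± 0.11. The summed input level of this list was 279.2 to 651.3 CPM in vehicle and 386.6 to 587.8 CPM in MS1262 animals, against 215.5 to 249.8 CPM in wild-type.

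**Figure D4:**
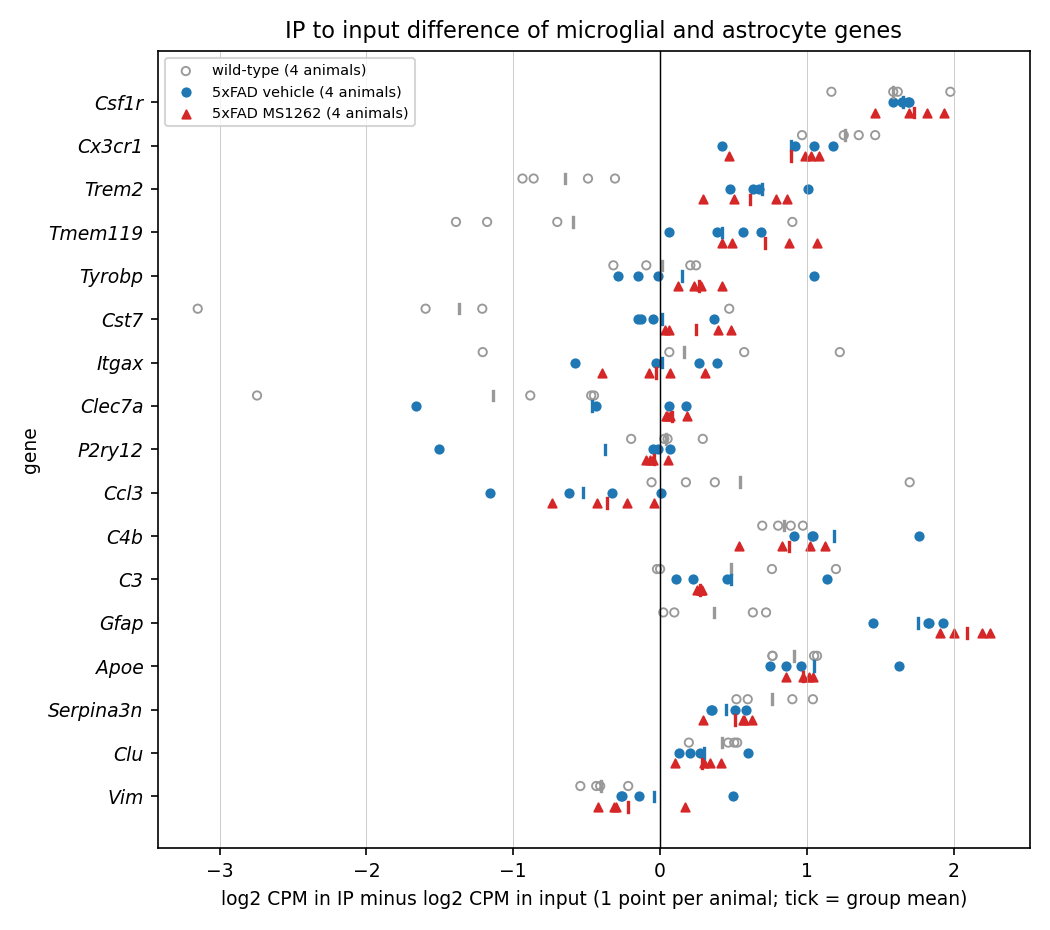
Log2 CPM in IP minus log2 CPM in input (x axis) for microglial and astrocyte genes; each point is 1 animal (wild-type, 5xFAD vehicle, 5xFAD MS1262; 4 each) and ticks are group means. For Gfap and Trem2 every 5xFAD animal lies above every wild-type animal, whereas for Csf1r and Apoe the groups overlap.

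The astrocyte cytoskeletal gene Gfap combined a raised level with a raised ratio. Gfap, the intermediate filament of reactive astrocytes, lies at chr11:102887336-102897200. Its input had 126, 218 and 403 CPM as lowest, median and highest, and its IP had 344, 887 and 1480 CPM. Each animal was between 1.45 and 2.25, and the log2 difference was 1.92 ± 0.09 (SE; edgeR adjusted p = 2.1e-10). Wild-type animals were between 0.02 and 0.72. Peaks over Gfap formed 7 regions, 6 of them in 8 of 8 animals. The authors' fold enrichment was highest in the region at 102895291-102895967, with a median of 6.27 over the 8 animals and a range of 5.48 to 8.10.

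Other reactive astrocyte genes varied. Of 21 tested, 7 were called higher and 2 lower, with a median of 0.22. S1pr3, a sphingosine-1-phosphate receptor, had 1.27 ± 0.11, the oncostatin M receptor Osmr had 0.57 and the serpin Serpina3n had 0.48 ± 0.07. Stat3, the transcription factor that drives astrocyte reactivity, had 0.22. Vim, another intermediate filament, was not called at -0.14 (edgeR adjusted p = 0.23). The highest animal, at 0.50, was vehicle animal 4, without which Vim was called lower at -0.22 (edgeR adjusted p = 0.028).

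General astrocyte markers split evenly, with 7 of 16 called higher and 6 lower and a median of 0.11. Id3, a transcriptional inhibitor, had 3.11 to 14.2 CPM in input and 16.1 to 50.4 CPM in IP, without overlap, a difference of 1.93 ± 0.12. Aldh1l1, an enzyme of folate metabolism, had 1.34 ± 0.07 and the growth factor receptor Fgfr3 had 1.01. Sox9, the transcription factor of astrocyte identity, was lower at -1.21 ± 0.12, and the glycolytic enzyme Aldoc at -0.75. Clu, an abundant astrocyte chaperone, had 0.30 ± 0.07.

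Of 15 oligodendrocyte genes 8 were called higher and 4 lower, with a median of 0.26, beside 25.8% and 25.7% of all genes. Mbp, the myelin basic protein whose RNA is transported into processes and translated there, had 376 to 811 CPM in input and 1160 to 2840 CPM in IP. The fractions did not overlap, and the animals were close together at 1.63 to 1.94, with a difference of 1.74 ± 0.06 (SE; edgeR adjusted p = 4.6e-12). Mag had 1.21, Mobp 1.02, Cnp 0.96 and the myelin transcription factor Myrf 0.91. The lower members were Mog at -0.21, Opalin at -0.27, Ermn at -0.34 and Aspa at -0.46. The calls of Mog, Opalin and Ermn were lost without the animal block. Precursor genes had a higher median, 0.70, with 7 of 11 called higher and 2 lower. Neu4, a sialidase, had 1.28, Bcan, the proteoglycan brevican, had 1.12, and Gpr17, a receptor of differentiating precursors, had 1.03. The phosphatase Ptprz1 was called lower at -0.47, with animals at -1.20 to -0.27, and the transcription factor Olig2 at -0.46.

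A set of genes passed a count threshold in most 5xFAD inputs and not in most wild-type inputs. The threshold does not mean absence from wild-type, and the margin varied. Mean input was 5.48 CPM in 5xFAD and 0.073 CPM in wild-type for Itgax, but 0.69 and 0.29 CPM for Aspg. By counts alone, 128 genes had at least 10 counts in at least 6 of 8 5xFAD inputs and in fewer than 2 of 4 wild-type inputs. They were selected on 5xFAD input counts, the denominator of the ratio. Their counts, their median and the calls and p values of single members are therefore a description only. Of the 127 tested, 10 were called higher and 12 lower, with a median of -0.26. In the quintile of all genes with the lowest input, 13.77% were called higher and 2.869% lower, with a median of 0.20. That quintile was itself cut on input level, so it is no unbiased reference. Their median input level was 0.608 CPM, against 7.91 CPM over all tested genes, so precision was low. On the lists of glial and inflammatory genes were 7 of them: Abi3, Aspg, Ccl3, Cxcl10, Itgax, Lgals3 and Timp1. Of these, Abi3, an adaptor of the WAVE actin complex, was called higher at 1.83 ± 0.50 (edgeR adjusted p = 0.0052) from 0 to 1.62 CPM in input, and Ccl3 was lower. The others were not called, with Aspg at 0.72, Cxcl10 at -1.02, Lgals3 at -0.20 and Timp1 at -1.04.

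Of the remaining genes the 12 with the highest input level were examined, passing over predicted and clone-named genes. This ranking again used the denominator of the ratio, so the calls, signs and p values below are descriptive. Dcstamp, a fusion receptor of osteoclasts and macrophages, had 1.15 to 17.5 CPM in input and 2.12 to 21.0 CPM in IP, and was called higher at 0.47 ± 0.18 (edgeR adjusted p = 0.043). That call was lost on leaving out any of 5 animals, with values of 0.35 to 0.53. Pdcd1, the inhibitory receptor PD-1, was called higher at 0.95 ± 0.30 (edgeR adjusted p = 0.013) and all 8 animals were above 0. Cd209a, a lectin of dendritic cells, was called lower at -1.43 ± 0.36 (edgeR adjusted p = 0.0039) and all 8 were below 0. Its input level was 0.0846 to 10.2 CPM. Mmp12, Atp6v0d2, Lilrb4a, Ly9, Cd200r4, Naip5, Mcmdc2, Trh and Ugt1a6b were not called, with differences from -0.69 for Mmp12 to 0.87 for Trh.

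Lysosomal genes were more often higher. Of 25 tested 15 were called higher and 3 lower, with a median of 0.36 against -0.01 for all genes. After Psap the smallest p values belonged to Man2b1, a lysosomal mannosidase, at 1.29 ± 0.07, and Hexa, the hexosaminidase alpha subunit, at 1.28 ± 0.08. Laptm5, a lysosomal membrane protein of haematopoietic cells, had 0.98 and the acid glucosidase Gaa had 0.95. The summed input level of the list was 3756 to 5280 CPM in 5xFAD and 2827 to 3302 CPM in wild-type. Without vehicle animal 4, 17 were called higher and 5 lower.

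Genes of amyloid processing and Alzheimer risk divided by gene, with 11 of 26 higher and 9 lower and a median of 0.01. App, the amyloid precursor, was lower at -0.41 ± 0.05 (edgeR adjusted p = 7.0e-06), with all animals between -0.49 and -0.33. Reads of the human transgenes can be counted on App, and promoter sequence in the transgenes on Thy1. The input level of App was 522 to 716 CPM in 5xFAD and 594 to 744 CPM in wild-type, with a median of 644 CPM in both. The input level of Thy1 was 298 to 808 CPM in 5xFAD and 97.0 to 116 CPM in wild-type. Thy1 was not called, at -0.03. Among gamma-secretase genes Ncstn had 0.73, whereas Psenen, the smallest subunit, had 80.3 to 99.2 CPM in input and 38.7 to 68.2 CPM in IP and was at -0.96. Bin1, an endocytic adaptor, had 1.05 and the microtubule protein Mapt had 0.77.

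The transcripts of the m6A machinery carried unequal ratios themselves. Of 9 writer genes, 4 were called higher and 3 lower, with a median of -0.11. The catalytic subunit Mettl3 had 14.9 to 24.1 CPM in input and 20.9 to 31.8 CPM in IP, a difference of 0.25 ± 0.09 (edgeR adjusted p = 0.030). That call was lost without vehicle animal 3 or 4 or MS1262 animal 1, at 0.19 to 0.25. Mettl14 had 0.48 and the scaffold Virma 0.33, whereas Wtap and Zc3h13, which hold the complex in nuclear speckles, were at -0.59 and -0.57. Mettl16, a separate methyltransferase, had 0.30, a call lost on leaving out vehicle animal 1 or 2 or MS1262 animal 2 or 4. The demethylase Fto had 132 to 233 CPM in input and 263 to 349 CPM in IP, without overlap, a difference of 0.83 ± 0.09. Alkbh5, the other demethylase, was lower at -0.51 ± 0.10.

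Reader genes were mostly lower, with 1 of 11 called higher and 6 lower and a median of -0.33. The nuclear reader Ythdc1 had 79.8 to 123 CPM in input and 27.8 to 68.4 CPM in IP, a difference of -0.93 ± 0.08 (edgeR adjusted p = 8.0e-08). Among cytoplasmic readers Ythdf1 was at -0.41, Ythdf2 at -0.90 and Ythdf3 at -1.03. Vehicle animal 4 was the lowest for Ythdf3, at -3.27, and without it the difference was -0.80. The translational repressor Fmr1 was at -0.87 and at -0.68 without that animal. Prrc2a, a reader linked to myelination, was higher at 1.58 ± 0.20 from 1.05 to 2.76 CPM in input.

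Genes of histone H3K9 methylation, the pathway that MS1262 addresses by the series title, split into 6 higher and 6 lower of 17, with a median of 0.03. Ehmt2, which encodes G9a, had 8.01 to 12.8 CPM in input and 11.7 to 37.2 CPM in IP, a difference of 0.68 ± 0.12 (edgeR adjusted p = 0.00016). Its partner Ehmt1 was not called at 0.21 (edgeR adjusted p = 0.078), and Wiz, a zinc finger partner of both, had 0.83. The demethylases Kdm4a and Kdm4b had 2.65 ± 0.27 and 1.10 ± 0.09, the former from 0.214 to 0.652 CPM in input. Suv39h1, a heterochromatin methyltransferase, had 0.44, and Cbx3, a heterochromatin protein, was lower at -1.04. Large chromatin regulators were more often lower, with 8 of 18 against 3 higher and a median of -0.17. Setd1b was at -1.08 and Zfhx3 at -1.15.

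Synaptic genes divided into opposed groups of nearly equal size. Of 28 scaffold, adhesion and glutamate receptor genes, 11 were called higher and 12 lower, with a median of -0.11. Grin1, the obligatory subunit of NMDA receptors, had 5.81 to 8.13 CPM in input and 23.1 to 38.3 CPM in IP, without overlap, a difference of 1.97 ± 0.09 (SE; edgeR adjusted p = 2.1e-10). Grin2a, another NMDA receptor subunit, went the other way, from 620 to 1140 CPM in input to 203 to 524 CPM in IP, at -1.08 ± 0.08. Nlgn2, the adhesion molecule of inhibitory synapses, had 0.96 and the scaffold Dlgap4 had 1.12.

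Activity-regulated genes gave 10 higher and 6 lower of 21, with a median of 0.11. Arc, a regulator of receptor endocytosis, had 1.12 ± 0.12 and the transcription factor Fos had 0.94 ± 0.12. Dusp6, a phosphatase of ERK kinases, had 0.74. The nuclear receptor Nr4a3 was lower at -1.11 ± 0.08 and the neurotrophin Bdnf at -0.70 ± 0.08. Without vehicle animal 4 the list median was -0.01, with 9 higher and 7 lower.

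Markers of neuron classes showed no common direction. Of 12 excitatory markers 5 were higher and 5 lower, with a median of -0.02, among them the synaptic receptor Nptxr at 1.10, the kinase Camk2a at 0.81, the vesicular glutamate transporter Slc17a7 at 0.75 and the transcription factor Tbr1 at -0.87. Of 12 inhibitory markers 4 were higher and 6 lower, with a median of -0.13. The calcium-binding protein Calb2 had 1.03, the transcription factor Lhx6 0.98 and the peptide Sst 0.80, whereas Pvalb, a calcium buffer, was at -0.86. The signs of the excitatory, inhibitory, synaptic, m6A writer, activity-regulated, large chromatin, interferon and Zfp medians changed relative to all genes in at least 1 of the other scalings.

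Noncoding RNAs were more often lower, with 10 of 17 against 4 higher and a median of -0.38. Malat1, a nuclear-retained RNA, had 564 to 1190 CPM in input and 91.8 to 621 CPM in IP, a difference of -1.19 ± 0.15 (edgeR adjusted p = 4.8e-06). Without vehicle animal 4 it was at -0.98 and the list median at -0.21. Peg13, an imprinted RNA, was higher at 1.24 ± 0.07 and Pantr1 was lower at -0.72. The 353 Zfp zinc finger genes gave 67 higher and 91 lower, beside 25.8% and 25.7% of all genes. Their median was -0.04, and it was -0.58 in vehicle animal 4.

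The remaining lists are given beside 51.5% called over all genes. Of 20 interferon response genes 3 were higher and 4 lower, with a median of -0.01, Ifit1 at -0.68 and Stat2 at 0.48. Of 16 endothelial and mural genes 4 were higher and 2 lower, with a median of 0.28. Among them the tight junction protein Cldn5 had 1.51 from under 1 CPM, the pericyte receptor Pdgfrb 1.29 and Rgs5 -0.95. Of 10 meningeal genes 3 were higher and 1 lower, with a median of 0.26. Of 10 choroid plexus genes 1 was higher and 5 lower, with a median of -0.31. Of 5 red blood cell genes none was higher and 3 were lower, with a median of -0.64. The list median was 0.34 in vehicle animal 4 and between -1.13 and -0.11 in the other 5xFAD animals.

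**Figure D5:**
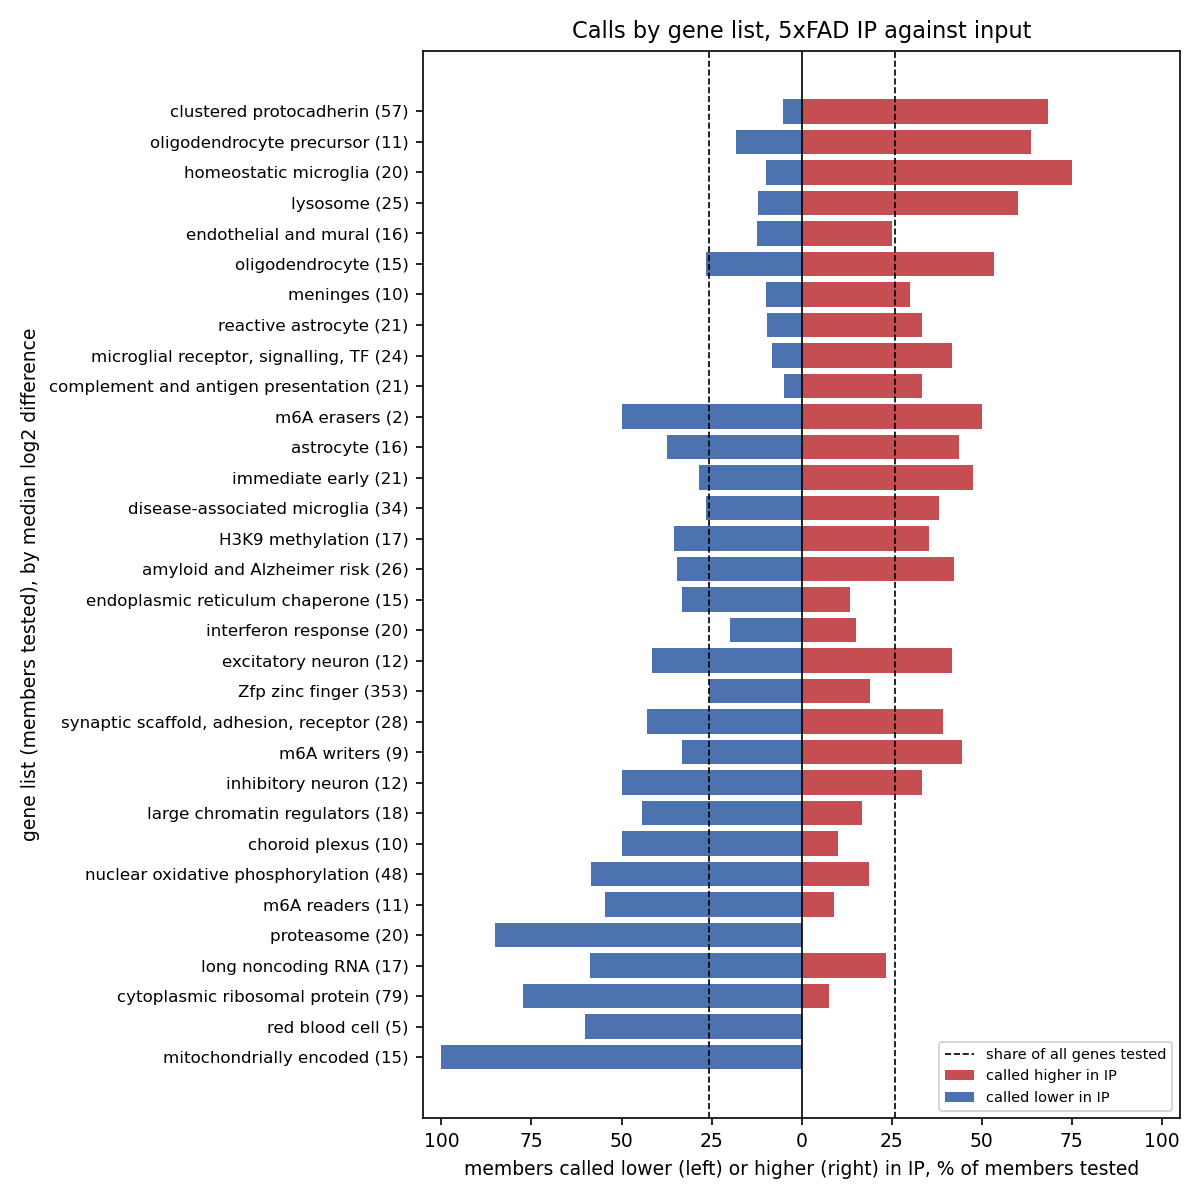
Share of the tested members of each gene list called lower (left) or higher (right) in IP, in percent of members tested (x axis), for the 5xFAD animals; lists are ordered by median log2 difference, the number tested is in brackets, and dashed lines mark the shares of all genes, 25.7% lower and 25.8% higher. The protocadherin list is at the top, with 39 of 57 called higher, and the mitochondrially encoded list at the bottom, with 15 of 15 called lower.

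Few ratios were called different between 5xFAD and wild-type animals, and nearly all of these were higher in 5xFAD. In the same fit 394 genes had a higher ratio in 5xFAD (2.15%) and 19 a lower one (0.104%). Of these, 310 (1.69%) and 16 (0.0874%) also had no overlap between the 8 5xFAD and the 4 wild-type animals. The counts depended on single animals. With 1 animal left out at a time they ranged from 134 to 820 higher and from 1 to 225 lower. The fewest higher genes came without wild-type animal 1 (134) or wild-type animal 4 (145), and the most without vehicle animal 4 (820). Leaving out vehicle animal 1, MS1262 animal 2 or MS1262 animal 3 gave 251, 253 and 246. Of genes with a lower ratio, 225 were called without vehicle animal 4. Without wild-type animal 1, 3 or 4 there were 2, 3 and 1, without vehicle animal 1 there were 9, and without MS1262 animal 1, 2, 3 or 4 there were 11, 7, 7 and 6. Without the animal block, 2 genes were higher and 0 lower.

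The 394 genes were shorter than most, with a median relative length of 0.687 against 0.996 for all genes, and 121 of them lay in the shortest quintile. The median difference was 0.81 on the log2 scale, with a range of 0.42 to 2.11. The 19 genes with a lower ratio were long, with a median relative length of 2.48 and 16 in the longest quintile. The part of length in these calls was not tested.

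The largest gains are given for genes with a mean log2 CPM of at least 1 over all 24 libraries and no overlap between 5xFAD and wild-type animals, with clone-named genes and protocadherins passed over. Reep2, an endoplasmic reticulum shaping protein of neurons, was between 1.34 and 2.43 in the 8 5xFAD animals and between -0.19 and 0.48 in wild-type. The difference of the log2 ratios was 1.68 ± 0.17 (SE; edgeR adjusted p = 0.00020). Its IP level was 19.7 to 39.7 CPM in 5xFAD and 12.4 to 18.5 CPM in wild-type, and its input level was 5.52 to 10.7 CPM against 10.4 to 18.6 CPM. Ntmt1, an N-terminal methyltransferase, differed by 1.65, Pex6, a peroxisomal ATPase, by 1.61, Znrd2 by 1.56 and Crip2, a LIM domain protein, by 1.54.

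Glial genes stood among them. Gfap differed by 1.56 ± 0.15 (edgeR adjusted p = 0.00018), Id3 by 1.52 (edgeR adjusted p = 0.0011), Trem2 by 1.33 (edgeR adjusted p = 0.00088) and C1qb by 0.92 (edgeR adjusted p = 0.0040). Fth1 differed by 0.95 (edgeR adjusted p = 0.0012). Cst7 differed by 1.96 at the threshold (edgeR adjusted p = 0.048), from 0 to 0.356 CPM in the wild-type IP libraries, and the call was lost on leaving out any 1 of 10 animals. Csf1r, Apoe and C4b did not pass this test. The input level of Gfap was 46.0 to 138 CPM in wild-type and 126 to 403 CPM in 5xFAD, and that of Trem2 4.46 to 8.05 and 5.00 to 24.9 CPM, so level and ratio moved together in these genes.

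The calls of lower ratios in 5xFAD depended on single animals. Anpep, the aminopeptidase CD13, differed by -1.43 ± 0.30 (edgeR adjusted p = 0.016). The others were Prune2 at -0.72, the kinase scaffold Mapkbp1 at -0.69, the calcium channel subunit Cacna1c at -0.65, Zswim5 at -0.61 and Stard13 at -0.61. Each of these 6 calls was lost on leaving out wild-type animal 1 or wild-type animal 4.

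Between MS1262 and vehicle animals no ratio differed in the edgeR fit: 0 genes were called (0%), 434 had an unadjusted p under 0.05, and the smallest adjusted p was 0.83. DESeq2 called 1 gene higher and 1 lower, and edgeR without a low-count filter called 18 and 24. The gene with the smallest p among those named by rule was Tmem63b, a mechanosensitive ion channel, at 1.02 to 1.70 in MS1262 and 1.96 to 3.15 in vehicle animals, a difference of -1.24 ± 0.26 (unadjusted p = 0.00021, edgeR). Pef1, a calcium-binding adaptor, differed by 0.51, Bin3 by 0.76, the phosphatase Ppm1f by -1.05 and the mitochondrial ornithine carrier Slc25a15 by -0.91. All of these had an edgeR adjusted p of 1.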

How the data were processed

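Poly(A) RNA of each hippocampus was split, per the labels' protocols: 10% of 150 ng was kept as input and the rest was bound by a polyclonal m6A antibody, and both were made into SMART-seq libraries. Trimming with Trimmomatic 0.32, the aligner STAR 2.7.6a, the quantifier Salmon 1.4.0 and the peak caller MACS2 2.1.2 appear, without their order, per the submitters' processing notes. The authors deposited estimated counts and TPM per gene, and the estimated counts were rounded to whole numbers for the fit. The libraries carry no molecular identifiers. Per the file headers, peaks were called with MACS2 on each animal's IP against its own input with a q cutoff of 0.5. The deposited peak lists give a pileup signal, −log10 p and q values, and a fold enrichment ratio, and the headers record 36 to 66% duplicate tags. Gene spans came from a RefSeq table of GRCm38.p6.

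Groups were taken from the labels. All 24 libraries entered 1 fit in edgeR 4.0.16 (R 4.3.3): quasi-likelihood test, TMM scaling, genes kept by a minimum count of 10, the animal as a block and an IP coefficient per group, with Benjamini-Hochberg adjustment over 18300 of 55291 genes. The 5xFAD value is the mean of the vehicle and MS1262 coefficients. Each SE is the absolute log2 difference divided by the square root of the F statistic of this fit. Per-animal differences are log2 CPM of IP minus input with a prior count of 2. Input and IP of one animal come from the same tissue, and their deviations correlated in every animal (r of 0.19 to 0.43). The script was tested on simulated data. Where nothing says that animals were handled separately, p values measure only the spread between these samples.

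Named genes were the 12 largest differences each way with mean log2 CPM of at least 3 and 1 sign in 8 animals, a set of glial, amyloid and methylation genes, up to 6 members of each of 32 lists by p, the genes too low in wild-type, and the 6 largest differences from wild-type each way. A few genes that this rule covers are not reported here. Gpr34, Ltc4s, Xist, Ttr, Olig2, Mog, Opalin, Ermn and Aspa were named after their values were seen. The protocadherin list also took gamma a and gamma b members that its written pattern did not cover. The members and lists were chosen with earlier results of these data known. Alternatives were upper quartile scaling, library totals, DESeq2 1.42.0, limma 3.58.1 on log2 TPM, other count filters, no block, the 16 libraries alone, each animal left out, and other peak criteria. Leaving out vehicle animals 3 and 4 together was added after seeing the data.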

Additional observations from a re-analysis of the deposited data

Results flagged for a closer look

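In 24 of 178 groups of 4 animals examined, 1 animal lay far from the other 3, by a gap beyond Dixon's 95% limit. Chance alone gives about 1 in 20 such groups where the groups are independent. Here the groups reuse the same animals and share genes, so the count cannot be set against that rate. Vehicle animal 4 accounted for 14 of the 24. Its log2 difference was -4.07 for mt-Rnr1, -3.13 for mt-Rnr2, -2.34 for mt-Co1, 1.76 for C4b, -1.51 for P2ry12 and 0.50 for Vim. Its list medians were -0.40 for m6A erasers, -0.42 for large chromatin regulators, 0.094 for oxidative phosphorylation, -2.65 for mitochondrially encoded genes, -0.075 for the proteasome, -0.58 for long noncoding RNAs and -0.585 for Zfp genes. The mitochondrial share of its IP library was 4.222%. The part of its low depth in these values was not tested.

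Vehicle animal 3 held 7668 CPM of Ttr in input and 5286 CPM in IP. MS1262 animal 3 held 172.7 and 138.6 CPM of Ttr, and its disease-associated microglia median was 0.19. Vehicle animal 2 stood apart in the reactive astrocyte median, 0.39, and the interferon median, -0.30. MS1262 animal 1 was low for Cx3cr1 at 0.47, for Fto at 0.47 and in the oligodendrocyte precursor median at 0.35.

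The ratio of 31 named genes differed between 5xFAD and wild-type in the edgeR test of the difference itself. Beyond the glial and largest ones described above (Gfap 1.56, Id3 1.52, Trem2 1.33, C1qb 0.92, Fth1 0.95, Cst7 1.96, Reep2 1.68, Ntmt1 1.65, Pex6 1.61, Znrd2 1.56 and Crip2 1.54), higher differences were found for Sgta (1.18), Arc (1.14), Abcb8 (1.11), Sst (1.10), Nlgn2 (0.88), Kdm4b (0.87), Bcan (0.83), Ampd2 (0.82), Slc2a6 (0.82), Gaa (0.75), Dlgap4 (0.74), Calb2 (0.73), Dusp6 (0.57) and Hexa (0.56). Lower ones were Anpep (-1.43), Prune2 (-0.72), Mapkbp1 (-0.69), Cacna1c (-0.65), Zswim5 (-0.61) and Stard13 (-0.61). With 1 animal left out at a time, 15 of the 31 calls were lost without wild-type animal 1 and 15 without wild-type animal 4. Of the higher genes from Sgta to Hexa, Abcb8 and Dlgap4 were lost without wild-type animal 4, Kdm4b and Calb2 without wild-type animal 1, and Bcan, Ampd2, Slc2a6, Gaa, Dusp6 and Hexa on leaving out either of these animals. Ampd2, Bcan, Gaa, Hexa and Slc2a6 also lost their call without other animals. Sgta, Arc, Sst and Nlgn2 kept theirs in each of these fits.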

How the results depend on the processing

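How many genes were called each way differed between fits. With library totals, where the scaling alone changed, the counts of higher and lower genes were 7208 and 2463 in 5xFAD, 5574 and 1786 in vehicle and 5814 and 1594 in MS1262 animals. With limma on log2(TPM + 1) and log2(TPM + 0.1), where test and unit changed too, they were 11016 and 10966 higher with 517 and 526 lower in 5xFAD, 9463 and 9397 with 319 and 340 in vehicle, and 8518 and 8564 with 326 and 320 in MS1262 animals. On log2(TPM + 0.1), 4466 genes passed 2-fold. Of 169 single gene results of IP against input, 169 kept direction and call with upper quartile scaling, 166 with DESeq2, 150 with library totals, 128 on log2(TPM + 1) and 129 on log2(TPM + 0.1). On those TPM scales 21 and 20 changed sign. Without the replicate block 155 kept their call and 14 lost it.

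The difference from wild-type gave 715 higher and 135 lower with DESeq2, 643 and 62 with no low-count filter, 164 and 2 on log2(TPM + 1), 177 and 1 on log2(TPM + 0.1), and 11 lower with library totals. Without the replicate block that pairs input and IP, it gave 2 higher and 0 lower, and 30 of 31 named calls were lost. Leaving out 1 animal gave 134 to 820 higher and 1 to 225 lower, and leaving out vehicle animals 3 and 4 together gave 745 and 138. Between MS1262 and vehicle, DESeq2 gave 1 and 1 and no low-count filter 18 and 24.

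A peak in at least 1 animal was found for 33% of all genes, 56.6% of higher, 25% of lower, 23.6% of genes not called and 15.6% of genes at least 2-fold lower. A peak in 8 of 8 animals was found for 6.2%, 19.3%, 0.795% and 1.58% of the first 4 classes.

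Some genes near 0 changed sign without the median of all genes being subtracted. With library totals, log2(TPM + 1) and log2(TPM + 0.1) in turn, Clec7a was at 0.10, 0.56 and 0.64, P2ry12 at 0.071, 0.53 and 0.54, Vim at 0.12, 0.20 and 0.21, Thy1 at 0.24, 0.42 and 0.42, Lgals3 at 0.0669, 0.36 and 0.65, Ly9 at 0.14, 0.30 and 0.45, and Ugt1a6b at 0.23, 0.25 and 0.52. On the TPM scales alone, Ccl3 was at 0.18 and 0.21, App at 0.0826 and 0.0829, Alkbh5 at 0.10 and 0.11, Ms4a6d at 0.15 and 0.16, Wtap at 0.0374 and 0.0369, Ythdf1 at 0.23 and 0.25, Mcmdc2 at 0.0635 and 0.15, and Cd200r4 at 0.0025 on log2(TPM + 1). On the same scales Ptprz1 was at 0.17 and 0.17, Olig2 at 0.15 and 0.20, Mog at 0.44 and 0.44 (0.0549 with library totals), Opalin at 0.38 and 0.39, Ermn at 0.31 and 0.32, and Aspa at 0.15 and 0.16. Leaving out 1 animal at a time gave Clec7a -0.29 to 0.0013, Itgax -0.0587 to 0.0907, Lgals3 -0.39 to 0.0894, Lilrb4a -0.0891 to 0.32, Ly9 -0.24 to 0.070, Thy1 -0.11 to 0.0326 and Ugt1a6b -0.27 to 0.23, and without vehicle animals 3 and 4 Ugt1a6b was at 0.0713, Thy1 at -0.15 and Lgals3 at -0.51. The depth of vehicle animal 4 limits its single-gene values.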
